A study of Mus musculus with 6 samples.

Results

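The genes described here encode the proteins that shape the red cell membrane and carry some of its blood group antigens: Gypc, Slc4a1, Epb41, Epb42, Sptb, Ank1, Kel and Xk. They were followed in mouse megakaryocytes, the large bone marrow cells that shed platelets. The members were all probe sets, groups of short array probes read as 1 value, whose platform annotation names 1 gene symbol and that symbol is one of these 8. The rule found 15 of the 45037 probe sets on the array, controls aside, for 7 of the 8 genes. No probe set was named for Epb41 in this annotation, so that gene was not analysed here. The study compared 3 samples of a Gata-1 knock down (A, B and C) with 3 wild-type samples (A, B and C), each on 1 Affymetrix mouse array. In both groups the cells were grown in culture from progenitors of fetal livers taken at embryonic day 13.5, and megakaryocytes were enriched on an albumin gradient before total RNA was extracted. The labels name neither the allele behind the knockdown nor the strain, nor whether the samples came from separate animals or cultures, so a p-value here speaks only of the variation among 6 samples and may not cover that between animals.

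The red cell keeps its shape through a mesh of spectrin under the membrane. Ankyrin, encoded by Ank1, ties beta-spectrin, encoded by Sptb, to the anion exchanger encoded by Slc4a1, and the Epb42 protein, a transglutaminase relative without enzyme activity, strengthens that tie. A separate anchor runs from spectrin through the Epb41 protein to glycophorin C, the product of Gypc, which carries the Gerbich blood group antigens. The Kell glycoprotein, an endothelin-processing metalloprotease encoded by Kel, is joined by a disulfide bond to the multipass membrane protein XK. GATA1 is a zinc finger factor of both the red cell and the megakaryocyte lineage, and it binds DNA at short GATA words.

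Promoters of 3 members that moved are shown because the factor that was reduced binds DNA. Kel and Xk, whose products form 1 complex, were higher in knockdown, and Sptb was lower. The sequences are the 250 bases before the gene start in RefSeq's GRCm38.p6 assembly, read on the gene's own strand from 5′ to 3′. They lie at chr6:41704326-41704575 (minus strand) for Kel, chrX:9272534-9272783 (plus strand) for Xk and chr12:76710548-76710797 (minus strand) for Sptb. Capitals mark the GATA words searched on both strands, the letters GATA with A or T before them and A or G after them.
Kel: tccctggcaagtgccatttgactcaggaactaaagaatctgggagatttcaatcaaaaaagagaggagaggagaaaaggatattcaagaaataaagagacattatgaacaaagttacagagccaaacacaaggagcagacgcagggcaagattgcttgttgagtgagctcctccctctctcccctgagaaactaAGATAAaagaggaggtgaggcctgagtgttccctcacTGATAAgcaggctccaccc
Xk: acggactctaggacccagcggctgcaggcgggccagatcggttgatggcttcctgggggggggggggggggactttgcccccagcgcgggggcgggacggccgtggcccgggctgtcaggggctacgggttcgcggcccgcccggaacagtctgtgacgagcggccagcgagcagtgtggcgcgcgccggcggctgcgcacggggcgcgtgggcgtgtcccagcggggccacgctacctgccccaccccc
Sptb: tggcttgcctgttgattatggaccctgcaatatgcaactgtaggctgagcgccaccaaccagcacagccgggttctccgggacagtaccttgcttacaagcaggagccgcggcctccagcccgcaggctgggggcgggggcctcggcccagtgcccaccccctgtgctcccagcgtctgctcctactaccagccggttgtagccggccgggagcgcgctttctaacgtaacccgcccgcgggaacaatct

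The Kel window held 2 GATA words, AGATAA beginning 56 bases and TGATAA beginning 19 bases before the start, both on the gene's strand. The windows of Xk and Sptb held 0. Of 32851 RefSeq windows of the same length, 26.5% held at least 1 GATA word and 6.40% held 2 or more. In the window of Epb42, AGATAA lay on the opposite strand with its far end 226 bases before the start. Of the 3 windows of Epb41, 1 held a word, TGATAG on the opposite strand, with its far end 184 bases before the start. The letters CACCC, searched on both strands and not in capitals above, occurred 1 time each in the windows of Kel, Xk and Sptb and in 52.0% of all windows. A match is a stretch of letters and not a measured binding site. Windows of Slc4a1, Ank1 and Gypc were not used here.

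Signals are on the linear scale the authors deposited. They were compared as log2(signal + 32) after quantile normalization, with limma and Benjamini-Hochberg adjustment over the 31526 that were tested, and an adjusted p below 0.05 was called. A log2 fold change is knockdown minus wild type on that scale, which understates the change of dim genes. A probe set's background on an array was the highest signal of the 27 bacterial control probe sets, which have no target in mouse RNA. It was 60.7 to 82.2 on 5 arrays and 132 on knockdown B, which also had the highest median signal. Gata1 itself had a log2 fold change of -5.52 ± 0.12 (SE), so the labels and the targeted gene point the same way. Across the tested probe sets, which share their libraries, the correlation of normalized log2 values between 2 arrays was 0.963 to 0.981 within groups and 0.928 to 0.944 between groups. Of 13 tested megakaryocyte markers, 13 lay above background on every wild-type array, and 11 fell in knockdown while 0 rose. Among all tested genes, each read by its probe set of highest mean log2 value, 17.1% fell and 18.3% rose.

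Of the 15 probe sets, 13 passed the filter on low values, with at least 1 for each of the 7 genes. In knockdown 4 rose, 3 fell and 6 did not pass the test, beside 16.1% of all tested probe sets that rose and 14.3% that fell, or 30.4% called in all. Rises made up 52.9% of all called probe sets, and 32.9% with arrays centred on their medians. With each gene read by its probe set of highest mean log2 value, 3 of 7 genes rose (Xk, Kel and Slc4a1) and 2 fell (Gypc and Sptb), beside 18.3% and 17.1% of 14230 genes, or 35.5% in all. The median log2 fold change was 0.10 over the 13 probe sets and 0.04 over all tested. The deposited signals of the groups did not overlap in 8 of the 13 probe sets, beside 46.0% of all tested. Knockdown was above wild type in 5 of these and below it in 3, beside 29.1% and 16.9%. With 3 arrays against 3, an exact two-sided permutation test of 1 probe set cannot give a p below 0.1, so the calls rest on the fit across all probe sets.

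**Figure D1:**
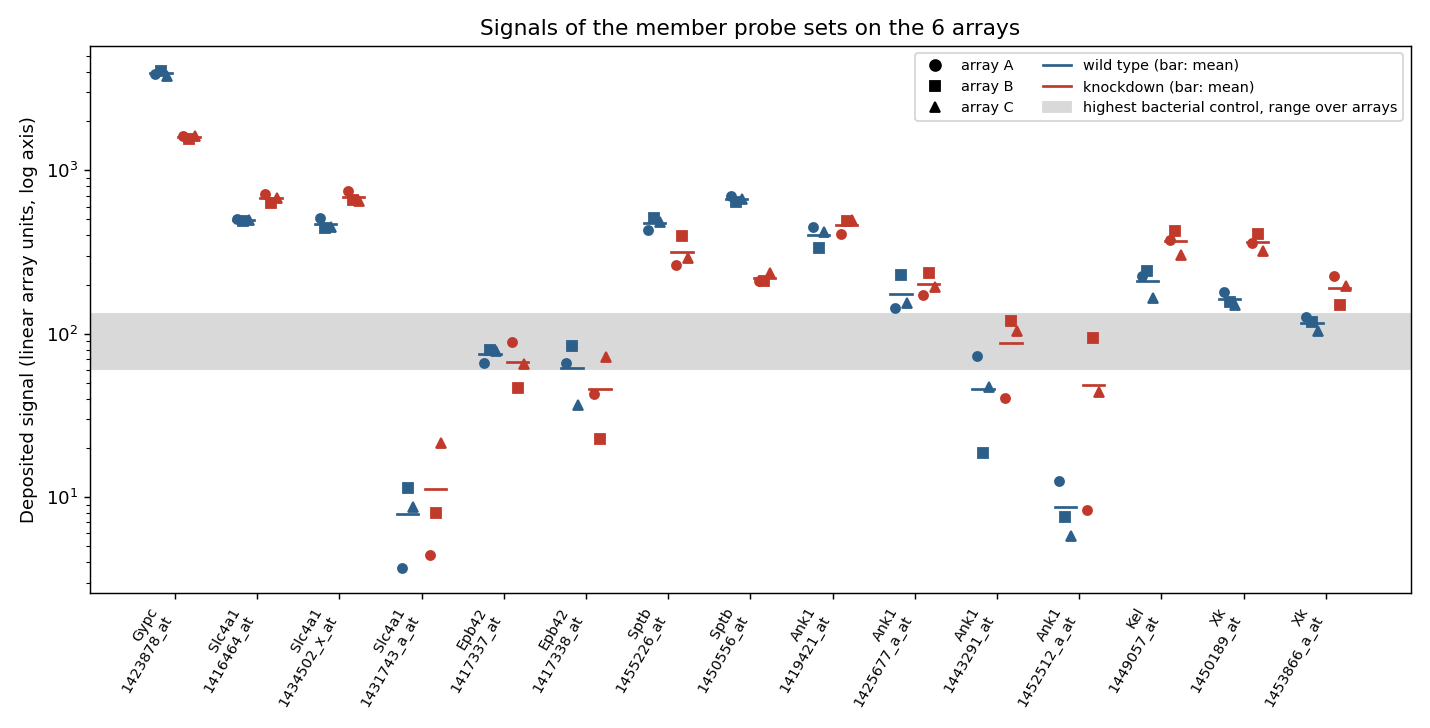
Deposited signal (linear units, log axis) of the 15 member probe sets on each array, wild type in blue and knockdown in red, with bars at group means; the grey band spans the highest bacterial control, 60.7 to 132. Gypc and both probe sets of Sptb sit lower on every knockdown array, and Kel, Xk and the upper 2 probe sets of Slc4a1 sit higher.

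Gypc, the glycophorin that anchors the spectrin mesh away from ankyrin, was lower in knockdown on every array, with little spread within each group. Its 1 probe set (1423878_at) read 1619.5, 1549.3 and 1619.7 in knockdown A, B and C and 3900.8, 4061.5 and 3792.5 in wild type A, B and C. No knockdown array came near a wild-type array. Knockdown averaged 1596 ± 40.6 and wild type 3918 ± 135 (SD, n = 3), and the log2 fold change was -1.23 ± 0.06 (SE; limma adjusted p 2.29e-07). Of all tested probe sets, 2.98% fell further. The knockdown signals were still 11.7 to 20.3 times the background of their arrays. In these bulk samples, fewer cells that express a gene and less of its RNA per cell cannot be told apart.

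Sptb, the beta-spectrin of the red cell mesh, was lower in knockdown by both of its probe sets, but by unequal amounts. The probe set 1450556_at read 211.0, 208.8 and 236.1 in knockdown A, B and C and 698.0, 642.8 and 667.9 in wild type A, B and C. The 2 groups lay far apart, at means of 219 ± 15.2 and 670 ± 27.6 (SD, n = 3), and the log2 fold change was -1.60 ± 0.12 (SE; limma adjusted p 4.68e-06). Only 1.59% of tested probe sets fell further.

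The other Sptb probe set, 1455226_at, read 262.8, 395.1 and 289.7 in knockdown and 430.9, 508.9 and 479.3 in wild type. Knockdown B lay nearest to the wild-type arrays, though the groups did not overlap. Its log2 fold change was -0.65 ± 0.15 (SE; limma adjusted p 0.00797). The difference between the 2 probe sets within an array, 1455226_at minus 1450556_at in normalized log2 units, was 0.26 to 0.93 on the knockdown arrays and -0.63 to -0.31 on the wild-type arrays. The groups did not overlap in this difference, which was not tested and shows only that the probe sets changed unequally. The probes' positions in the transcript are not used here.

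Slc4a1, the anion exchanger that swaps chloride for bicarbonate and holds the ankyrin complex, was slightly higher in knockdown. Its probe set 1416464_at read 711.5, 627.7 and 677.4 in knockdown A, B and C and 506.6, 486.1 and 493.5 in wild type. The lowest knockdown array stood above the highest wild-type array. The log2 fold change was 0.35 ± 0.09 (SE; limma adjusted p 0.0178). The probe set 1434502_x_at, of a type whose probes can also bind other transcripts, read 741.8, 661.5 and 651.6 against 513.0, 445.3 and 451.1 and rose by 0.45 ± 0.10 (SE; limma adjusted p 0.00715). Another probe set, 1431743_a_at, stayed at 3.7 to 21.3, below background on all 6 arrays, and was not tested.

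The rise of Slc4a1 depended on how the arrays were scaled. With arrays centred on their medians, the 2 tested probe sets had log2 fold changes of 0.22 and 0.32 and limma adjusted p of 0.278 and 0.118, so both calls were lost. That centring moved the median of all tested probe sets from 0.04 to -0.05. The call of 1416464_at was also lost without knockdown C or without any 1 of the wild-type arrays, with limma adjusted p of 0.0514 to 0.075. Over all 15 alternatives its adjusted p ran from 0.00567 to 0.278 and that of 1434502_x_at from 0.00283 to 0.118.

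Ank1, the ankyrin that joins beta-spectrin to the anion exchanger, did not pass the test by any of its 3 tested probe sets. The probe set 1419421_at read 406.0, 489.0 and 493.5 in knockdown A, B and C and 447.7, 336.8 and 417.9 in wild type, and the groups overlapped. Its log2 fold change was 0.10 ± 0.14 (SE; limma adjusted p 0.646), with a 95% interval of -0.21 to 0.41. The probe set 1425677_a_at read 171.5, 236.8 and 191.9 against 142.9, 227.8 and 153.5, with a log2 fold change of 0.03 ± 0.19 (SE; limma adjusted p 0.942) and an interval of -0.39 to 0.44. Both intervals include 0 and also 0.35, the change fitted for Slc4a1 by 1416464_at, but not the 0.45 fitted by 1434502_x_at.

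The remaining probe sets of Ank1 were near or below background. The probe set 1443291_at exceeded background on 1 knockdown and 1 wild-type array and had a log2 fold change of 0.43 ± 0.37 (SE; limma adjusted p 0.450). The probe set 1452512_a_at did not pass the filter: it read 8.4, 94.1 and 44.0 in knockdown and 12.6, 7.6 and 5.8 in wild type, all below the background of their arrays.

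Epb42, the partner of the anion exchanger, was close to background in both groups and its data do not show a change in either direction. Its probe set 1417337_at read 88.9, 46.6 and 65.4 in knockdown A, B and C and 66.5, 79.0 and 78.7 in wild type A, B and C. All 3 wild-type arrays but only 1 knockdown array exceeded background, by at most 1.30 times. The log2 fold change was -0.30 ± 0.28 (SE; limma adjusted p 0.495), with a 95% interval of -0.93 to 0.33. The probe set 1417338_at read 42.6, 22.8 and 71.6 against 65.8, 83.8 and 36.6, exceeded background on 1 wild-type array only, and had a log2 fold change of -0.44 ± 0.36 (SE; limma adjusted p 0.415).

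Kel, the Kell metalloprotease, was higher in knockdown. Its 1 probe set (1449057_at) read 376.4, 427.4 and 301.8 in knockdown A, B and C and 223.9, 240.6 and 165.3 in wild type A, B and C. Every knockdown array was above every wild-type array, and array C was the lowest of each group. The means were 369 ± 63.2 and 210 ± 39.6 (SD, n = 3), and the log2 fold change was 0.61 ± 0.17 (SE; limma adjusted p 0.0217). The call was lost without knockdown B (0.51, limma adjusted p 0.060), without wild type C (0.48, 0.0929) and without the intensity trend in the fit (0.61, 0.0507), and over the 15 alternatives the adjusted p ran from 0.00869 to 0.0929.

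Xk, the partner of Kell, was higher in knockdown by its probe set 1450189_at, which read 360.0, 405.0 and 322.6 in knockdown A, B and C and 180.8, 155.5 and 149.6 in wild type A, B and C. The highest wild-type array lay well below the lowest knockdown array. The means were 363 ± 41.3 and 162 ± 16.6 (SD, n = 3), and the log2 fold change was 0.89 ± 0.15 (SE; limma adjusted p 0.00106), further than all but 3.42% of tested probe sets in that direction.

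The second Xk probe set, 1453866_a_at, read 225.0, 149.6 and 196.4 in knockdown and 125.9, 117.8 and 104.4 in wild type. The deposited signals did not overlap, but the normalized values did, since knockdown B fell below wild type A and wild type B. Its log2 fold change of 0.37 ± 0.21 (SE; limma adjusted p 0.236) did not pass. It passed with the values as deposited (0.57, limma adjusted p 0.0479), where the median of all tested probe sets was 0.15, and without knockdown B (0.59, 0.0371), and its adjusted p over the 15 alternatives ran from 0.0371 to 0.504. The difference between the 2 probe sets within an array was 0.59 to 1.44 in knockdown and 0.32 to 0.41 in wild type, in normalized log2 units, with knockdown B the highest.

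**Figure D2:**
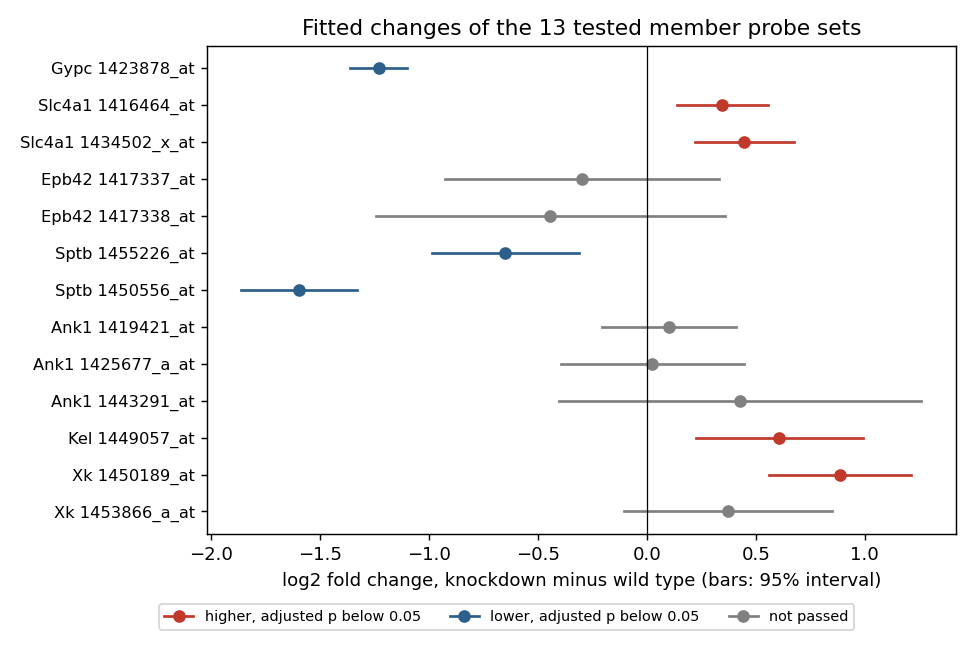
Log2 fold change (x axis, knockdown minus wild type) of the 13 tested member probe sets with 95% intervals from limma; red and blue mark those higher and lower at an adjusted p of 0.05, grey those that did not pass. Xk 1450189_at reaches 0.89 and Sptb 1450556_at -1.60, while the intervals of Ank1 and Epb42 cross 0.

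**Figure D3:**
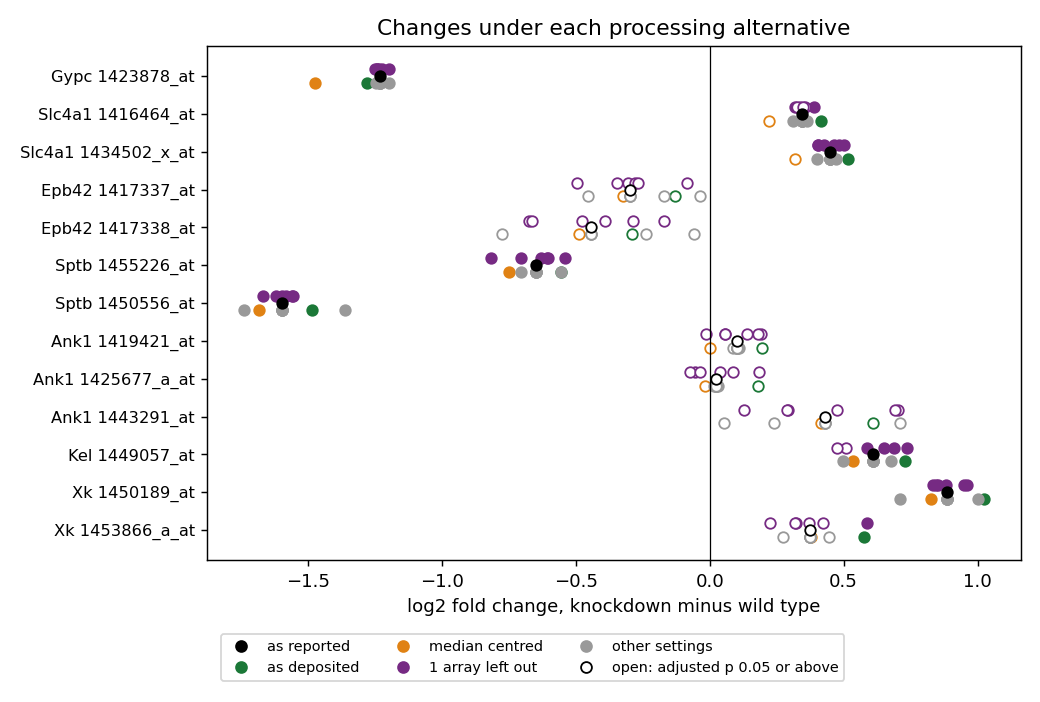
Log2 fold change (x axis) of each tested member probe set as reported and under each processing alternative; open points did not pass an adjusted p of 0.05. Gypc, both probe sets of Sptb and Xk 1450189_at stayed filled throughout, while Slc4a1 and Kel have open points. For Kel, filled points of other settings at the same value cover the open point of the fit without the intensity trend.

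For the members that passed by the probe set of highest mean log2 value, the 2 genes with the highest Pearson correlation over the 6 arrays are named as a description. All points share the 2 groups, so a gene that changed in the same direction with little spread within groups scores high, whatever the size of its change. In all, 1354 genes exceeded 0.95 with Gypc, 892 with Xk, 745 with Slc4a1, 222 with Sptb and 54 with Kel. St3gal2, a sialyltransferase gene, and Rdh11, a retinol dehydrogenase gene, followed Gypc with correlations of 0.99996 and 0.99957, and had log2 fold changes of -2.38 and -0.45. Cyfip2 and Exoc4 followed Xk (0.998 each), and Tbc1d4 and Fyttd1 followed Slc4a1 (0.999 and 0.998). For Sptb the probe set of highest mean log2 value was 1455226_at, which fell by less than the other. Ints8 and Erlin1 followed it (0.997 and 0.995). Grhpr and Dclre1a followed Kel (0.996 and 0.990), although these last 2 genes did not pass the test.

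In a list of other genes drawn up around the anion exchanger, Rh and junctional complexes, more fell than rose. The list also holds membrane genes outside these complexes, such as Abcb6. Of 20 tested of its 23 genes, 7 fell, 1 rose and 12 did not pass, beside 17.1% and 18.3% of all genes. The median log2 fold change was -0.04, and 0.09 with the values as deposited. Stom, the stomatin of lipid rafts, averaged 2353 ± 84.2 in wild type and 653 ± 51.5 in the knockdown samples (SD, n = 3; log2 fold change -1.81 ± 0.08 SE). Mpp1, the scaffold that binds glycophorin C, changed by -1.54 ± 0.06. Add3, of the adducin family that caps actin at spectrin junctions, changed by -0.99 ± 0.07 and the porphyrin transporter Abcb6 by -0.82 ± 0.09. These 4 calls held under all 15 alternatives. The 1 rise, named after its value was seen, was that of Car2, the carbonic anhydrase that works beside the anion exchanger, by 0.45 ± 0.06, a call that median centring of the arrays removed. Named after their values were seen, the Rh genes Rhag and Rhd did not pass, at 0.18 ± 0.15 and 0.20 ± 0.23. Without knockdown A, 4 genes of the list rose. The brightest gene of the list, Actb, encodes the beta-actin of the junctions and did not pass, at -0.07 ± 0.04.

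Among other blood group genes, 9 of 21 tested fell and 3 rose, beside 17.1% and 18.3% of all genes. The other 9 tested of this list of 25 did not pass. The median log2 fold change was -0.28, running from -0.37 with arrays centred on their medians to -0.13 without the filter. The largest change was in Ackr1, the chemokine receptor of the Duffy group, which averaged 4830 ± 88.3 in wild type and 385 ± 86.9 in the knockdown samples (SD, n = 3; log2 fold change -3.56 ± 0.13 SE; limma adjusted p 4.44e-08). Cd55, the complement regulator of the Cromer group, changed by -2.01 ± 0.10 and Slc14a1, the urea transporter of the Kidd group, by -1.63 ± 0.05. Abcg2, the efflux transporter of the Junior group, rose by 2.11 ± 0.06, from 1176 ± 31.2 to 5051 ± 213 (SD, n = 3). These 4 calls held under all 15 alternatives. Bsg, the basigin of the Ok group and the brightest of the list in wild type, did not pass, at -0.12 ± 0.05 (limma adjusted p 0.0889). Abcb6, Rhag and Rhd are among the tested genes of both lists.

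Relatives of the members that serve other cells went both ways. Of 21 tested of a list of 29, 6 rose and 3 fell, beside 18.3% and 17.1% of all genes, and 12 did not pass. The median log2 fold change was 0.18, and -0.019 with arrays centred on their medians, where 2 rose and 3 fell. Tgm2, the transglutaminase related to Epb42, rose by 2.63 ± 0.09 and Ece1, the endothelin-converting enzyme related to Kel, by 1.46 ± 0.12. Epb41l2, a relative of Epb41, changed by -0.78 ± 0.12 on its brightest probe set, the 1 called of its 4 tested, and Slc4a2, the anion exchanger of many other tissues, by -0.70 ± 0.09. These 4 calls held under all 15 alternatives. Named after their values were seen, Sptbn1, the beta-spectrin of other cells, rose by 0.18 ± 0.04 where Sptb fell, but that call was lost under 3 of the 15 alternatives, and with arrays centred on their medians its value was below 0. Whether relatives changed differently from the members was not tested. F13a1, the factor XIII subunit and the brightest of the list in wild type, did not pass, at -0.02 ± 0.04.

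**Figure D4:**
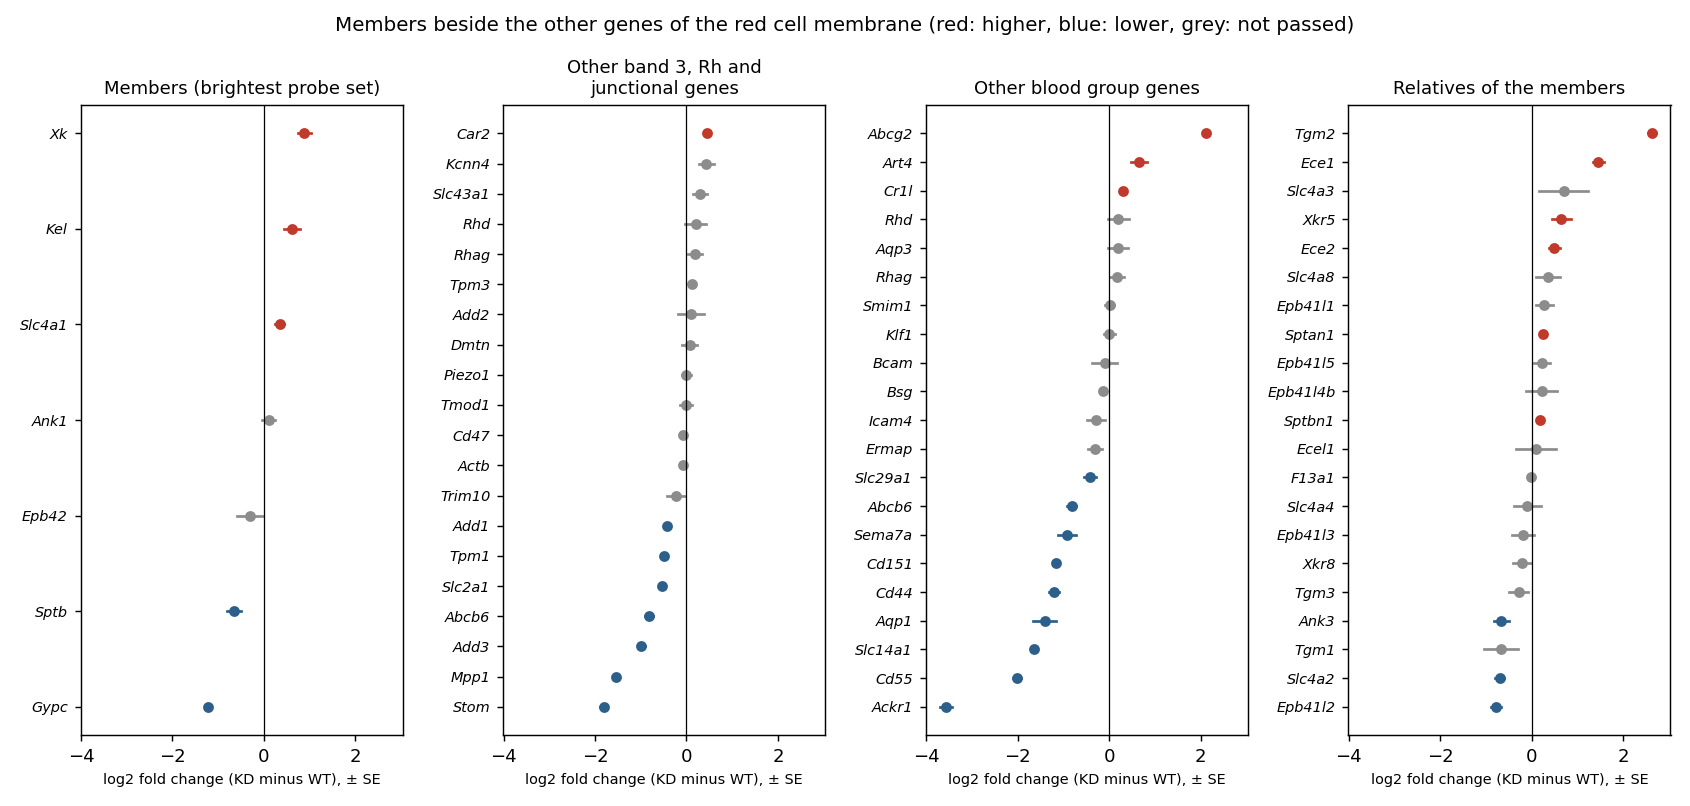
Log2 fold changes (x axes, knockdown minus wild type, ± SE) of the 7 members by their brightest probe set and of the tested genes of the 3 lists, sorted within each panel; red rose, blue fell and grey did not pass. Ackr1 at -3.56 and Tgm2 at 2.63 lie beyond all the members.

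Markers of other cells moved with the groups. Of 12 tested genes of red cell precursors, 4 fell and 1 rose, beside 17.1% and 18.3% of all genes, and 7 did not pass. The sum of the signals of the 12 genes was 11740 to 12000 in knockdown and 25920 to 26250 in wild type. The marker genes named here were chosen after their values were seen. Hbb-y, an embryonic beta-type globin, averaged 9748 ± 197 in wild type and 1125 ± 87.0 in knockdown (SD, n = 3), with a log2 fold change of -3.07 ± 0.06, and made up most of the drop in the sum. Epor, the erythropoietin receptor, changed by -2.34 ± 0.08 and Alas2, the red cell enzyme of heme synthesis, by -0.67 ± 0.12. Tfrc, the transferrin receptor, changed by -0.49 ± 0.04 on its brightest probe set, the 1 called of its 3 tested. Slc25a37, the mitochondrial iron carrier, rose by 0.73 ± 0.09. The alpha-globin genes Hba-a1 and Hba-a2, dim by the probe sets read here, did not pass, at -0.29 ± 0.27 and -0.01 ± 0.16. Probe sets that name more than 1 gene were not read, so the RNA of Hba-a1 and Hba-a2 may be read only in part. For the listed globin genes Hbb-bt, Hbb-bs and Hbb-b1, no probe set named the gene alone, so they were not read. Of the 12 genes, 11 lay above background on every knockdown array. Of macrophage, mast cell and neutrophil markers, 12 of 13, 7 of 10 and 8 of 10 fell and 0 rose. Among all genes, 17.1% fell and 18.3% rose. In knockdown, the summed signals of the macrophage, mast cell and neutrophil markers, in that order, were 8213 to 8272, 1317 to 1522 and 3122 to 3216. In wild type they were 21560 to 22200, 4432 to 5085 and 11130 to 11570. Above background on every knockdown array were 11 of the 13 macrophage, 2 of the 10 mast cell and 6 of the 10 neutrophil markers, and within it on each were 1, 7 and 0. The brightest of each list in wild type stayed above background in knockdown. Csf1r, the macrophage growth factor receptor, averaged 6939 ± 115 in wild type and 2476 ± 82.9 in knockdown (SD, n = 3). Cpa3, a mast cell protease gene, averaged 1967 ± 33.4 and 845 ± 61.6, and S100a9, a calcium-binding protein gene of neutrophils, 3659 ± 59.3 and 759.8 ± 137. Summed megakaryocyte markers were 108700 to 134100 in knockdown and 171200 to 182800 in wild type. The part of these cells in the changes of the membrane genes was not tested.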

How the data were processed

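Per the labels, total RNA of 6 megakaryocyte samples was measured on 1 array each. The deposited table holds intensity values per probe set, on a linear scale as the values show, and the authors had scaled each array to a common mean of 500 with 2% trimmed at each end. The signal software is not given in these sources. Medians of log2(signal + 32) spanned 0.346, above a limit of 0.2, so arrays were quantile normalized. The 64 control probe sets and those below the 30th percentile of the mean were left out. limma 3.58.1 in R 4.3.3 (lmFit, eBayes with trend, two-sided) was tested on simulated data.

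Symbols came from the platform annotation, updated through gene numbers with RefSeq's GRCm38.p6 table. The genes named are the members, Gata1, the 2 genes most like each called member, up to 4 called genes of each list with the largest changes, and each list's brightest gene in wild type. Car2, Rhag, Rhd, Sptbn1 and the genes named from the marker lists were chosen after their values were seen. The members and lists were chosen with earlier results of these data known. The labels do not say whether the replicate letters pair the samples, so the reported fit did not pair them. No more than 0.237% of signals were identical between 2 arrays. With 3 arrays a group, precision is limited. Alternatives covered scaling, offset, filter, trend, block and each array left out.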

Additional observations from a re-analysis of the deposited data

How the results depend on the processing

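Gypc, both probe sets of Sptb and Xk 1450189_at kept their direction and their call under all 15 alternatives, with log2 fold changes of -1.47 to -1.20, -0.82 to -0.54 (1455226_at), -1.74 to -1.36 (1450556_at) and 0.71 to 1.02. With arrays centred on their medians, 2 member probe sets rose in place of 4. Leaving out 1 array at a time, 2 to 4 member probe sets rose, and 1 to 3 members by their brightest probe set, the fewest without wild type C. Over 192 combinations of probe set and alternative, 9 lost a call, 2 gained one and 5 changed sign. The sign changes were all in Ank1, which was not called: 1419421_at was -0.014 without wild type B, and 1425677_a_at was -0.0156 with arrays centred on their medians, -0.0547 without knockdown B, -0.074 without wild type A and -0.0365 without wild type C, so its values without 1 array ran from -0.074 to 0.19, and those of 1419421_at from -0.014 to 0.19. With the replicate letter as a block, 8757 probe sets were called in place of 9577; deviations from the group means correlated at -0.04 to -0.01 between arrays of the same letter. The causes of these changes were not tested. Floored signals and the choice of probe set by mean signal were added after the data were seen. Signals near background limit what Epb42 and the dimmer probe sets of Ank1 and Slc4a1 can show.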
